A study of Mus musculus with 24 samples.

Results

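The AP-1 and immediate early genes described here are Fos, Fosb, Fosl1, Fosl2, Jun, Junb, Jund, Atf3, Egr1 and Ier3. They were found by the gene name printed for each non-control probe of the array, which gave 11 probes of 55681 for the 10 genes, with 2 probes for Fosl2 and 1 for each other gene. The cells were alveolar type II cells, the surfactant-making epithelium of the lung, isolated from mice and then kept for 3 days at an air-liquid interface, where the apical side of the layer faces air. In the NaHS experiment the groups were 100 µM NaHS for 24 h, vehicle (culture medium) for 24 h, 100 µM NaHS for 6 h and vehicle for 6 h. NaHS sets free hydrogen sulfide (H2S) at once in water. In the GYY4137 experiment both groups received 100 µM GYY4137, a slow H2S donor, for 24 h, one in 85% O2 and the other in 21% O2. Each group had 4 arrays, 24 in all. No donor-free group stood in the GYY4137 experiment, and the labels give no strain, sex or age and do not say whether replicates were separate animals or cultures, so the p-values measure the spread between these samples, which may be technical.

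AP-1 is a pair of leucine zipper proteins, usually one of the Fos family (Fos, Fosb, Fosl1, Fosl2) and one of the Jun family (Jun, Junb, Jund), that binds short DNA sites in gene promoters and enhancers. Immediate early genes such as Fos and Egr1 are transcribed within minutes of a growth factor, stress or mechanical signal, through MAP kinases acting on transcription factors already present, and their transcripts are short-lived. In lung epithelium they are known as early responders to oxidants, stretch and isolation from tissue, so samples taken hours after a stimulus show the level after any early peak. Atf3 is a stress-induced leucine zipper factor that pairs with Jun proteins. Egr1 is a zinc finger factor, and Ier3 encodes a small membrane-bound protein linked to cell survival.

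Slides 1 and 2 each carried 2 arrays of every group of the NaHS experiment, slide 3 carried the 21% O2 arrays and slide 4 the 85% O2 arrays. Slide and oxygen level therefore cannot be told apart. Between 54.8% and 77.5% of the probes of an array lay well above background, with the lowest values on slide 1. Of 12 markers of type II cells, 9 lay above background on all arrays of each experiment, and Slc34a2, a phosphate transporter of these cells, on none of the 16 NaHS experiment arrays. Markers of other cell types were also above background on all arrays of both experiments, 7 of 8 for type I cells, 7 of 8 for fibroblasts, 8 of 8 for smooth muscle and pericytes and 5 of 5 for basal cells. In bulk samples such as these, fewer cells of a type and less RNA per cell cannot be told apart.

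Each value below is a log2 processed signal minus the 75th percentile of log2 signals of its own array, so that 0 is a signal as bright as that percentile. Signals of different probes are not set against each other, since probes differ in how well they bind. All 11 probes lay well above background on all 24 arrays and none was saturated. The Fos probe, printed in 10 spots that were averaged, lies at chr12:86817900-86817959 of mm9, the build of the array's annotation, the Fosl1 probe at chr19:5455496-5455555 and the Jun probe at chr4:94716928-94716987. The files give no exon or UTR for them.

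The upstream sequences of 3 members described in detail below are shown because several of these genes are known to be switched by sites close to their start. The RefSeq promoter table on GRCm38.p6 held 8 of the 10 genes, and not Fosl1 or Egr1. The 250 bases before the start are given 5′ to 3′ on the gene's strand, and capitals mark the matches to the motifs named after them. The Fos window is chr12:85473640-85473889 on the plus strand, the Jun window chr4:95052223-95052472 on the minus strand and the Atf3 window chr1:191183334-191183583 on the minus strand.
Fos: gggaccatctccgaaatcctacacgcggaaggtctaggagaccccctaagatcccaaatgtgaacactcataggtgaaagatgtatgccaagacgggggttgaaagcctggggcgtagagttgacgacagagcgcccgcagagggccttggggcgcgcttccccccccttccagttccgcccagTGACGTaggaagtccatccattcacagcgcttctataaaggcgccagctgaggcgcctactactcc
Jun: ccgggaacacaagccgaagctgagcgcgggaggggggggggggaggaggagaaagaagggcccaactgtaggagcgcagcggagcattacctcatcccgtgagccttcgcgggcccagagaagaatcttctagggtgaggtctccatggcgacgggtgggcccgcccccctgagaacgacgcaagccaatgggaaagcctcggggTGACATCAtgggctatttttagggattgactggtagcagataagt
Atf3: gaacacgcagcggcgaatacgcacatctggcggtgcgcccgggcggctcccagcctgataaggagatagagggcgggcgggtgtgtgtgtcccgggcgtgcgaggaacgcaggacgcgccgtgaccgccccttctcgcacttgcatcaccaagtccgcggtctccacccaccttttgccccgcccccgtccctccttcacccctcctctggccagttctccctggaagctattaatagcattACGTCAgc

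The capitals in Fos and Atf3 mark TGACGT, or ACGTCA on the other strand, the core of a cyclic AMP response element, 66 bases before the start of Fos and 8 bases before that of Atf3. This core was added to the search after the sequences were seen, and it lies within the full element TGACGTCA. It was in 2 of the 8 windows, and in 6.47% of all 32851 windows of this length. The capitals in Jun mark TGACATCA, the variant AP-1 site through which Jun is known to act on its own promoter, 45 bases before the start, found in 1 of 8 windows and 2.93% of all. The AP-1 site TGANTCA (6.75% of all windows), the full cyclic AMP element (1.55%) and the CArG box bound by serum response factor (1.47%) were in 0 of the 8. Only the 250 bases before the start were searched, so these counts do not show whether a gene has such a site farther upstream. Fosl1 and Egr1 had no window. The EGR site GCGNGGGCG was in 2 of the 8, Fosb and Fosl2, and in 4.7% of all. All motifs were searched on both strands, and a match is a match of letters only.

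**Figure D1:**
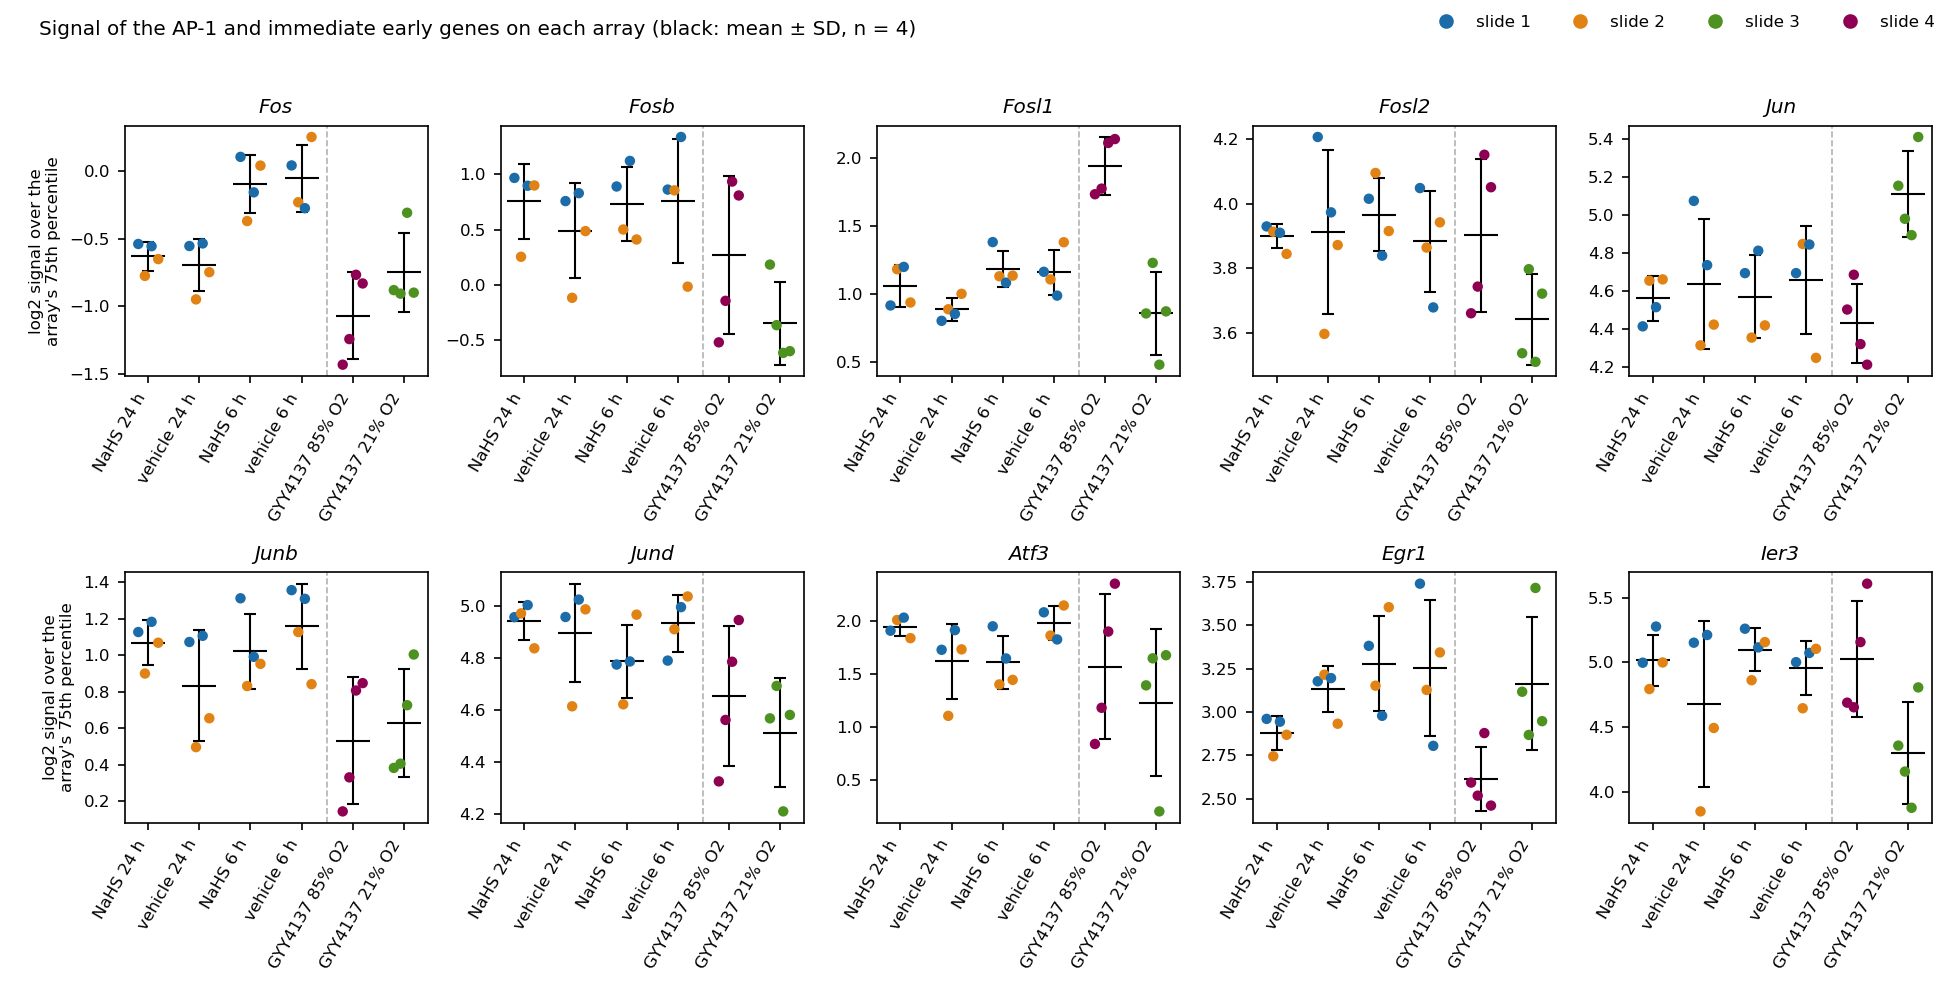
Log2 signal over the array's 75th percentile for each member on each array, coloured by slide, with mean and SD (n = 4) in black; the y axes differ between panels. Fos is lower in both 24 h groups than in both 6 h groups, Fosl1 is higher on all 85% O2 arrays than on all 21% O2 arrays, and Jun lower.

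NaHS left the AP-1 and immediate early genes without a called change at either time. At 6 h, limma called 0 of the 10 members, beside 0% of all 33128 genes tested (adjusted p under 0.05), with 1 member and 196 genes at an unadjusted p under 0.05. At 24 h it called 0 of 10, beside 0% of all genes, with 0 members and 734 genes at an unadjusted p under 0.05. At 6 h, 4 members had positive and 6 negative differences, with a median of -0.04 against 0.00 over all genes. At 24 h, 7 were positive and 3 negative, with a median of 0.12 against -0.00 over all genes. Arrays of the NaHS and vehicle groups overlapped for all 10 members at both times, as for all but 0.631% of genes at 6 h and 1.68% at 24 h.

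Atf3 had the member difference with the smallest p at both times, with opposite signs. At 6 h it stood at 1.95, 1.40, 1.65 and 1.45 with NaHS, against 2.08, 1.86, 1.83 and 2.15 with vehicle. At 24 h it stood at 1.91, 2.01, 2.03 and 1.84 with NaHS, against 1.73, 1.10, 1.92 and 1.73 with vehicle. The groups overlapped at 6 h through NaHS replicate 1, and at 24 h through vehicle replicate 3. The log2 difference was -0.37 ± 0.17 (SE) at 6 h, and 0.33 ± 0.17 at 24 h, with limma adjusted p-values of 0.99996 and 0.9998. For Atf3 the NaHS effect was 0.70 ± 0.24 larger at 24 h than at 6 h, with a 95% interval of 0.18 to 1.21, and limma gave an unadjusted p of 0.0120 and an adjusted p of 0.99998 over all genes. It was 0.31 on slide 1 alone and 1.09 on slide 2 alone. For this difference limma called 0 of 10 members and 0% of all genes, and 1 member and 356 genes had an unadjusted p under 0.05.

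The other members differed by less between NaHS and vehicle, relative to their spread. Among Fos family genes at 24 h, the differences were 0.07 ± 0.15 for Fos, 0.26 ± 0.29 for Fosb, 0.17 ± 0.11 for Fosl1 and -0.01 ± 0.12 for Fosl2 (SE). Jun family genes gave -0.08 ± 0.18 for Jun, 0.24 ± 0.16 for Junb, which can oppose Jun in growth control, and 0.05 ± 0.11 for Jund, the member known for steady expression. Egr1 gave -0.25 ± 0.18 and Ier3 0.34 ± 0.25 at 24 h, and 0.03 ± 0.18 and 0.14 ± 0.25 at 6 h. The 95% interval bounds how large an effect the main fit leaves room for. That fit held no term for slide, so differences between slides count as spread within a group. With slide as a block, limma also called 0 genes in NaHS against vehicle at both times. For Fos the main fit's interval ran from -0.36 to 0.27 at 6 h and from -0.25 to 0.38 at 24 h. Fosb was the most variable member in this experiment, with a pooled within-group SD of 0.43 over both slides. Its interval ran from -0.66 to 0.60 at 6 h and from -0.36 to 0.89 at 24 h.

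**Figure D2:**
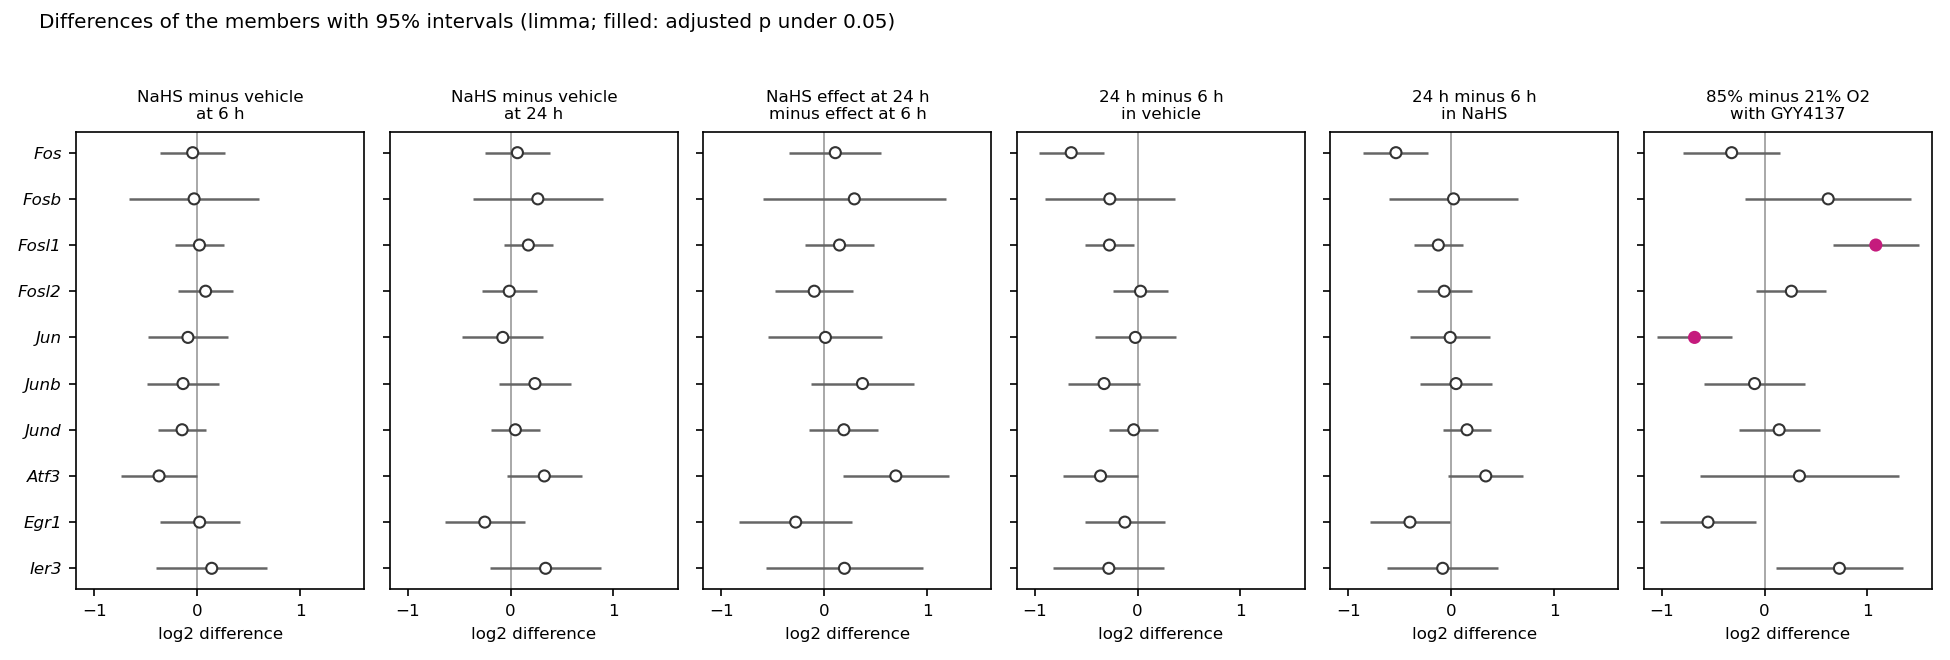
Log2 differences of the 10 members in the 6 comparisons (points) with their 95% intervals from limma (lines); filled points had an adjusted p under 0.05. Only Fosl1 and Jun in 85% against 21% O2 are filled, while the intervals of Fos in both comparisons of 24 h with 6 h lie below 0.

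Time in culture was the axis on which Fos, the prototype immediate early gene, differed most. Fos stood at -0.55, -0.95, -0.53 and -0.75 in vehicle at 24 h, against 0.04, -0.23, -0.27 and 0.25 in vehicle at 6 h. With NaHS it stood at -0.54, -0.77, -0.55 and -0.65 at 24 h, against 0.11, -0.37, -0.16 and 0.04 at 6 h. In both arms every 24 h array lay below every 6 h array. In vehicle the difference was -0.64 ± 0.15 (SE), 1.56-fold lower at 24 h, with a limma adjusted p of 0.0658, above the threshold. With replicate number as a block, the adjusted p was 0.0198, and with slide as a block 0.0336. With slide as a block and 1 array left out, Fos was called in 2 of 8 fits, with adjusted p-values of 0.0360 to 0.0921, and without the block in 0 of 8. Over 12 other settings, both blocks included, it was called in 3, with adjusted p-values of 0.0198 to 0.999976. Within slide 1 the difference was -0.43 and within slide 2 -0.86, neither called (adjusted p = 0.356 and 0.450). With NaHS it was -0.54 ± 0.15, with an adjusted p of 0.286, and 0.0873 with the replicate block. The arms share no arrays, but they share slides 1 and 2, and same-numbered arrays of different groups deviated together. The 2 arms are therefore not independent of each other. The effect of NaHS did not differ detectably between times for Fos (0.11 ± 0.21, with a 95% interval of -0.34 to 0.56).

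For the members as a whole, limma called 0 of 10 in 24 h against 6 h in vehicle, beside 0.607% of all genes, with 2 members and 3584 genes at an unadjusted p under 0.05. In NaHS it called 0 of 10, beside 0.0272% of all genes, with 2 members and 2425 genes at an unadjusted p under 0.05. In vehicle, 9 of 10 differences were negative, with a median of -0.27 against 0.01 over all genes. In NaHS, 6 of 10 were negative, with a median of -0.04 against -0.01 over all genes. Fos was the 1 member whose arrays did not overlap between times in vehicle, beside 6.72% of all genes (2.86% lower at 24 h). In NaHS these were Fos and Egr1, beside 5.79% of all genes (2.17% lower at 24 h). Arrays of 6 h and 24 h lay in different rows of each slide, so that row and time cannot be told apart.

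Egr1 with NaHS stood at 2.96, 2.74, 2.94 and 2.87 at 24 h, against 3.38, 3.15, 2.98 and 3.60 at 6 h. In vehicle it stood at 3.18, 3.21, 3.19 and 2.93 at 24 h, against 3.74, 3.13, 2.80 and 3.34 at 6 h, with overlapping arrays. The differences were -0.40 ± 0.18 in NaHS (limma adjusted p = 0.664) and -0.12 ± 0.18 in vehicle (adjusted p = 0.999997). Fosl1, Atf3, Junb and Ier3 gave -0.27 ± 0.11, -0.36 ± 0.17, -0.33 ± 0.16 and -0.28 ± 0.25 in vehicle, none called. In NaHS, Fosl1 gave -0.12 ± 0.11, Atf3 0.34 ± 0.17, Junb 0.05 ± 0.16 and Ier3 -0.08 ± 0.25. Jun was nearly level in both arms, at -0.02 ± 0.18 in vehicle and -0.01 ± 0.18 in NaHS. The 2 Fosl2 probes differed in sign in vehicle, at 0.03 ± 0.12 for the brighter and -0.15 ± 0.23 for the dimmer, with neither called.

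Of the wider pathway, 1 of 109 measured genes passed in 24 h against 6 h in vehicle, beside 0.607% of all genes. Among 22 measured genes known as AP-1 targets, Mmp3, which encodes the matrix protease stromelysin, was lower at 24 h than at 6 h in vehicle. It averaged -0.10 ± 0.60 at 24 h and 2.12 ± 0.73 at 6 h (SD, n = 4 each), a difference of -2.22 ± 0.42 (SE) with a limma adjusted p of 0.0381. It passed in 2 of the 8 fits that each left out 1 array, and did not pass with median centring, with no filter on dim probes or with only these groups in the fit. In the same comparison, 0 of 12 other AP-1 partners, 0 of 6 genes of the serum response factor module, 0 of 33 other immediate early genes, 0 of 21 MAP kinase cascade genes and 0 of 15 feedback inhibitors were called. Their medians were 0.05, 0.01, -0.10, 0.01 and -0.07, and 1, 1, 3, 4 and 2 of them had an unadjusted p under 0.05. In the NaHS against vehicle comparisons and in 24 h against 6 h with NaHS, none of the 109 was called.

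Markers of other cell types moved with time as well. All 5 club cell markers were lower at 24 h in vehicle, with a summed level of 1.28 to 4.28 at 24 h and 4.64 to 7.61 at 6 h. All 8 smooth muscle and pericyte markers were higher, with a summed level of 10.25 to 10.42 at 24 h and 9.37 to 10.23 at 6 h. Over all marker lists, Scgb3a1 of club cells and Sftpa1 of type II cells were called lower at 24 h in vehicle, and Notch3 of pericytes and Thy1 of fibroblasts higher. Of the 8 fibroblast markers, 4 had positive differences, with a list median of -0.10. Positive differences were found for 9 of 9 measured macrophage markers (median 0.78), 5 of 7 endothelial (0.74) and 2 of 11 type II markers (-0.23). They were found for 3 of 8 type I markers (-0.18), 0 of 6 ciliated (-0.63), 1 of 5 basal (-0.29) and 2 of 8 lymphocyte and neutrophil markers (-0.12). This comparison called 0.607% of all genes. In the 8 fits that each left out 1 array, Scgb3a1 and Thy1 were called in 1, Sftpa1 in 2 and Notch3 in 7. With NaHS, club cell markers summed to 2.24 to 4.996 at 24 h and 4.80 to 5.99 at 6 h. C1qa of macrophages was the marker called there, higher at 24 h by 2.26, beside 0.0272% of all genes. It was called in 5 of 11 other settings, with differences down to 0.09, and in 1 of 8 fits without 1 array. The part of these markers in the Fos difference was not tested.

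The slides also parted some members. With group in the fit, limma called 3 of 10 members between slide 2 and slide 1, all lower on slide 2, beside 50.4% of all genes (14.8% lower). These were Fosb (-0.55 ± 0.14), Junb (-0.32 ± 0.07) and Ier3 (-0.40 ± 0.14, SE). Junb in vehicle at 24 h, for example, stood at 0.50 and 0.66 on slide 2 and at 1.07 and 1.11 on slide 1. For Fos the slide difference was -0.12 ± 0.10, and for Fosl1 0.05 ± 0.08.

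In the GYY4137 experiment, 85% O2 went with a higher Fosl1 and a lower Jun than 21% O2. Fosl1, a Fos family member that lacks a strong activation domain and is known to build up under sustained MAP kinase signalling, stood at 1.73, 1.77, 2.11 and 2.14 in 85% O2, against 0.85, 1.23, 0.48 and 0.87 in 21% O2. Every 85% O2 array lay above every 21% O2 array. The log2 difference was 1.08 ± 0.18 (SE), a 2.12-fold rise, with a limma adjusted p of 0.00953. Jun, the partner that can also pair with itself, stood at 4.50, 4.69, 4.32 and 4.21 in 85% O2, against 5.16, 4.98, 4.89 and 5.41 in 21% O2. Again the groups did not overlap. The difference was -0.68 ± 0.16, 1.603-fold lower in 85% O2, with an adjusted p of 0.0270.

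These were 1 member higher and 1 lower of 10, beside 15.8% of all 34515 genes called, 10.2% higher and 5.55% lower. The members' share is thus close to that over all genes. Groups of arrays did not overlap for the same 2 members, beside 23.1% of all genes. Of the 10 differences 6 were positive, with a median of 0.20 against 0.07 over all genes. Subtracting each array's median in place of its 75th percentile moved the median of all genes to -0.08 and the share of calls that were higher in 85% O2 to 37.0%, against 64.8% with the 75th percentile. Fosl1 remained higher and Jun lower under each of the 5 scalings, Fosl1 by 0.94 to 1.12 and Jun by -0.82 to -0.64. The Jun call did not hold with replicate number as a block (adjusted p = 0.0571), nor in 5 of 8 fits that left out 1 array. These left out 21% O2 replicate 2 (0.0544) or 4 (0.0559), or 85% O2 replicate 1 (0.0531), 3 (0.0812) or 4 (0.0702). Fosl1 stayed called in all 8, with adjusted p up to 0.0366.

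Egr1, Ier3 and Fosb, whose differences were larger than those of the other uncalled members, did not pass the test. Egr1 stood at 2.59, 2.52, 2.88 and 2.46 in 85% O2, against 3.12, 2.87, 3.72 and 2.95 in 21% O2, with 1 pair of arrays overlapping by a small margin. Its difference was -0.55 ± 0.20 (SE), with a limma adjusted p of 0.0970, and 0.0474 with replicate number as a block. It also passed with median centring (-0.69, adjusted p = 0.0455) and with normexp background correction (-0.63, adjusted p = 0.0427). Ier3 stood at 4.69, 4.65, 5.16 and 5.61 in 85% O2, against 4.36, 4.16, 3.88 and 4.81 in 21% O2. The overlap came from 21% O2 replicate 4, and the difference was 0.73 ± 0.27 with an adjusted p of 0.0977. Fosb stood at -0.52, -0.14, 0.94 and 0.81 in 85% O2, against 0.19, -0.36, -0.61 and -0.60 in 21% O2, a difference of 0.62 ± 0.35 with an adjusted p of 0.248. The 85% O2 arrays of Fosb fell into a low pair and a high pair.

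Atf3 had the widest spread of the members in this experiment, with a pooled within-group SD of 0.69 against 0.24 in the NaHS experiment. It stood at 0.84, 1.18, 1.90 and 2.35 in 85% O2, against 1.39, 1.65, 0.20 and 1.68 in 21% O2, and its difference was 0.34 ± 0.42 (SE), with a 95% interval of -0.63 to 1.31. Within 85% O2, replicates 3 and 4 were above replicates 1 and 2 for Fos, Fosb, Fosl1, Fosl2, Junb, Jund, Atf3 and Ier3, and below them for Jun. Fos stood at -1.43, -1.24, -0.77 and -0.83 in 85% O2, against -0.88, -0.91, -0.31 and -0.90 in 21% O2, a difference of -0.32 ± 0.21 (adjusted p = 0.302). Fosl2, Junb and Jund differed by 0.26 ± 0.15, -0.10 ± 0.21 and 0.14 ± 0.17, and for Jund the difference was -0.00 with median centring. The dimmer Fosl2 probe gave 0.27 ± 0.14.

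**Figure D3:**
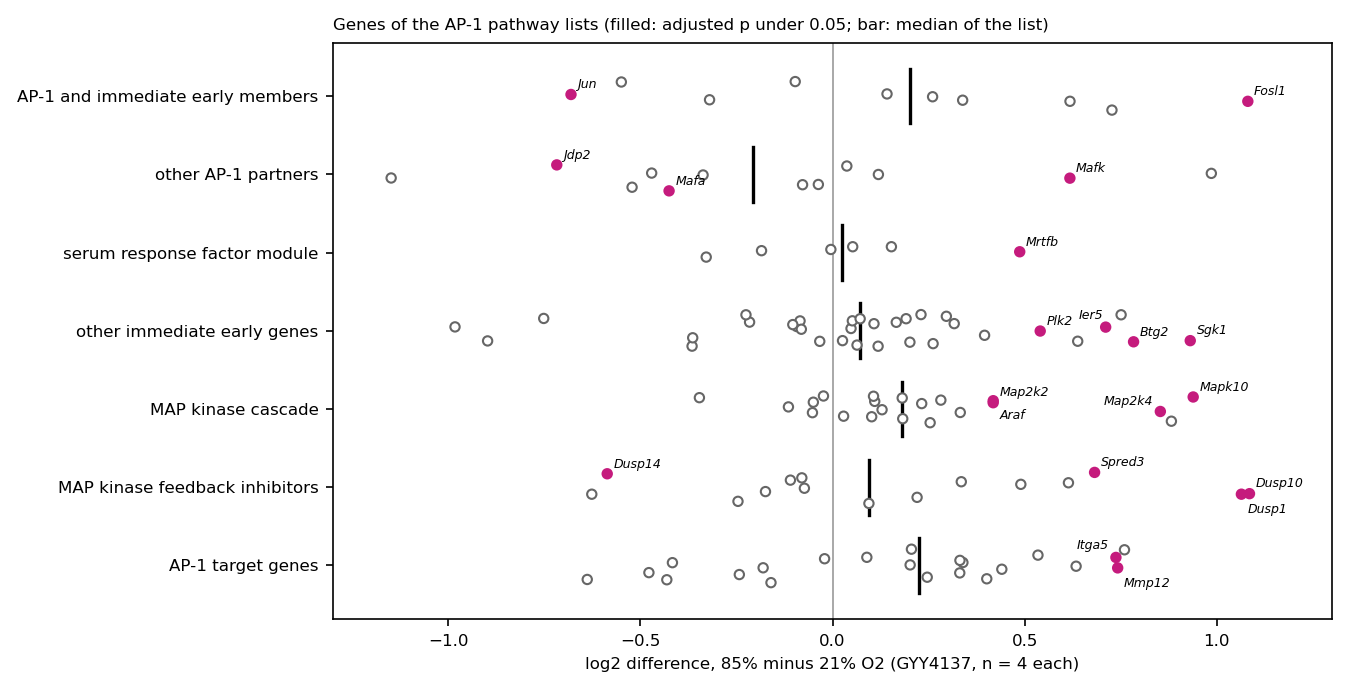
Log2 differences between 85% and 21% O2 (both with GYY4137, n = 4 each) for the members and for each list of the AP-1 pathway, with a point per gene and a bar at the list's median; filled points had an adjusted p under 0.05 and are named. The list medians lie between -0.21 and 0.23, and Dusp10 is the called gene farthest to the right, at 1.09.

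Of the 109 measured genes of the wider AP-1 pathway, 18 were called between 85% and 21% O2. This is 16.5% of them, close to the 15.8% of all genes (10.2% higher and 5.55% lower), and the lists are described here from the kinases down. Of 21 measured MAP kinase cascade genes, 4 were higher and 0 lower in 85% O2, with a list median of 0.18. Map2k4, which activates the stress kinases JNK and p38, averaged 1.64 ± 0.14 in 85% O2 and 0.79 ± 0.08 in 21% O2 (SD, n = 4 each), a difference of 0.85 ± 0.11 (SE) with a limma adjusted p of 0.00443. Mapk10, the JNK isoform best known from brain, rose by 0.94 ± 0.20 between dim signals, averaging -3.29 in 85% O2 and -4.23 in 21% O2. Map2k2 and Araf, kinases of the ERK branch, both rose by 0.42 ± 0.11. Map2k2 and Araf were not called with median centring, with no filter on dim probes or with the mean of all probes of a gene. Over the 10 other settings, the differences went down to 0.27 for Map2k2 and 0.14 for Araf. Map2k2 and Mapk10, the latter at 0.40, were not called with normexp background correction.

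Of 15 feedback inhibitors of MAP kinases, 3 were higher and 1 lower, with a list median of 0.09. Dusp1, a phosphatase that switches off p38, JNK and ERK and is itself an immediate early gene, averaged 2.87 ± 0.47 in 85% O2 and 1.81 ± 0.22 in 21% O2 (SD, n = 4 each), a difference of 1.06 ± 0.24 (SE, limma adjusted p = 0.0231). Dusp10, a phosphatase of JNK and p38, rose by 1.09 ± 0.25, with an adjusted p of 0.0249. Spred3, an inhibitor of the Ras to ERK step, rose by 0.68 ± 0.17, and Dusp14 fell by 0.59 on the log2 scale. Spred3 was not called with median centring, quantile normalization, the authors' deposited values or no filter on dim probes.

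In the serum response factor module, which drives Fos and Egr1 from upstream, 1 of 6 genes was higher and 0 lower, with a list median of 0.02. The gene was Mrtfb, an actin-sensing coactivator, at 0.49 ± 0.13 (SE, limma adjusted p = 0.0364). Mrtfb was not called with the mean of all probes of a gene or with no filter on dim probes. Its difference went down to 0.17 over the 10 other settings. Of 12 measured other AP-1 partners, 1 was higher and 2 lower, with a list median of -0.21. Mafk, a small Maf protein that also pairs with NRF2, rose by 0.62 ± 0.12. Jdp2, a repressor that binds Jun proteins, averaged 2.52 ± 0.26 in 85% O2 and 3.23 ± 0.30 in 21% O2 (SD, n = 4 each), a difference of -0.72 ± 0.19 (SE, adjusted p = 0.0408). Mafa, a large Maf factor known from pancreatic beta cells, fell by 0.43 on the log2 scale.

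Of 33 measured other immediate early genes, 4 were higher and 0 lower, with a list median of 0.07. Sgk1, a kinase that raises epithelial sodium channel activity, averaged 3.90 ± 0.18 in 85% O2 and 2.97 ± 0.30 in 21% O2 (SD, n = 4 each), a difference of 0.93 ± 0.17 (SE, limma adjusted p = 0.0128). Ier5 rose by 0.71 ± 0.17, Btg2, an antiproliferative p53 target, by 0.78 ± 0.19, and Plk2, a polo-like kinase, by 0.54 ± 0.15. Ier5, Btg2, Plk2, Mafk and Mrtfb were not called with median centring.

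Of 22 AP-1 targets, 2 were higher and 0 lower, with a list median of 0.23. Itga5, a subunit of the fibronectin receptor, averaged 5.06 ± 0.08 in 85% O2 and 4.32 ± 0.29 in 21% O2 (SD, n = 4 each), a difference of 0.74 ± 0.16 (SE, limma adjusted p = 0.0205). Mmp12, the macrophage elastase, rose by 0.74 ± 0.19 between dim signals, averaging -2.35 in 85% O2 and -3.09 in 21% O2. It was not called with quantile normalization, median centring, the authors' deposited values or no filter on dim probes. Of the 18 called genes, 9 were not called with median centring, 9 were not called with no filter on dim probes, and 4 (Map2k4, Dusp1, Sgk1 and Itga5) were called in all 10 other settings. In all 8 fits that left out 1 array, 2 of the 18 were called, namely Map2k4 and Sgk1. With replicate number as a block 7 of the 18 were not called, with limma adjusted p-values of 0.0519 for Spred3, 0.0563 for Mafa, 0.0597 for Dusp10, 0.0628 for Araf, 0.0738 for Map2k2, 0.0771 for Plk2 and 0.0791 for Mrtfb.

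Some cell type markers were also called between these groups, in a comparison that called 15.8% of all genes. All 8 fibroblast markers had negative differences, with a summed level of 8.74 to 9.45 in 85% O2 and 9.44 to 9.61 in 21% O2, and 1 of them, Thy1, was called lower. Smooth muscle and pericyte markers summed to 9.52 to 10 in 85% O2 and 9.87 to 10.23 in 21% O2, with Des called lower and Notch3 higher. Of these 8 markers, 2 had positive differences, with a list median of -0.34. Type II cell markers summed to 5.21 to 5.60 in 85% O2 and 5.53 to 6.09 in 21% O2. Of the 10 measured type II markers, 5 had positive differences, with a list median of -0.04, and Lamp3 was called lower. Ciliated cell markers summed to 1.75 to 2.34 in 85% O2 and 1.19 to 1.63 in 21% O2. Of the 5 measured ciliated cell markers, 3 had positive differences, and Foxj1 and Tppp3 were called higher. Endothelial markers summed to 2.34 to 2.97 in 85% O2 and 2.92 to 3.25 in 21% O2, while 5 of their 6 measured differences were positive and Tek was called higher. Tek and Tppp3 were not called with median centring. In the 8 fits without 1 array, Tppp3 was called in 2, Tek in 4 and Foxj1 in 5, and Thy1, Des, Notch3 and Lamp3 in all 8. No marker of type I, macrophage, club, basal or other blood cells was called. Positive differences were found for 4 of 4 measured club cell markers (median 0.83), 8 of 10 macrophage (0.56) and 7 of 8 lymphocyte and neutrophil markers (0.44). They were found for 3 of 5 basal (0.24) and 3 of 8 type I markers (-0.06). The part of all these cell type markers in the Fosl1 and Jun differences was not tested.

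The genes whose pattern was most like that of a member were sought over the 16 arrays of the NaHS experiment, after each slide's mean was subtracted, among 16665 named genes. These arrays share slides, groups and times, and the Pearson r is given as a description only. For Fos they were Mtmr7 (r = 0.94), Cwh43 (0.94) and Tff1 (0.93). For Fosl1 they were Txnrd1 (0.85), Jaml (0.85) and Cilp (0.83). For Atf3 they were Ereg (0.85), Rundc3b (0.84) and Maff (0.81), and for Egr1 they were Pdlim3 (0.88), Cybrd1 (0.88) and Fas (0.87). No gene was among the 3 most alike of more than 1 of these 4 members.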

How the data were processed

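RNA was measured on 24 1-colour (Cy3) Agilent arrays, 4 in each of 6 groups taken from the labels. The intensity values are the authors' deposited scanner output. Per the file headers, Agilent Feature Extraction 10.7.3.1 subtracted local and spatial background, removed multiplicative trends and replaced small values by a surrogate, with no scaling between arrays. The authors' deposited series table of log2 values was used as an alternative. Its normalization is not given in the sources used here, each column has the same median within an experiment, and its centring and any scaling stay unknown. The deposited flags (0 or 1) came from the same program.

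Spots flagged as uneven or as outliers were left out, spots of a probe were averaged as log2, and each array's 75th percentile was subtracted. Probes well above background on at least 4 arrays of an experiment were kept. The probe with the highest mean stood for a gene, and unnamed probes stood alone, which gave 33128 genes in the NaHS and 34515 in the GYY4137 experiment. Each experiment was fitted with limma 3.58.1 in R 4.3.3 (with data.table, version 1.17.8), with Benjamini-Hochberg adjustment over all genes and a threshold of 0.05. Figures and motif counts used Python 3.11.15, numpy 2.4.6, pandas 2.3.3 and matplotlib 3.10.9. The number of arrays limits the precision.

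The members, lists and tests were chosen with earlier results of these data known. Named are all members, up to 4 called genes of each list by p, and the 3 genes most like Fos, Fosl1, Atf3 and Egr1. Of the AP-1 targets listed, 1 is not reported here. A number of the markers are shared between cell types.

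Same-numbered arrays deviated together. Correlations of their deviations from group means were 0.54 to 0.75 in the NaHS experiment (24 pairs, each on 1 slide) and 0.18 to 0.26 in the GYY4137 experiment (4 pairs), against -0.22 to 0.16 for its 12 other pairs. Other pairs on 1 slide of the NaHS experiment gave 0.42 to 0.70. In the NaHS experiment the same-numbered pairs thus overlapped the other pairs on 1 slide, with a mean of 0.64 against 0.59. In the GYY4137 experiment the same-numbered pairs lay above all others. The labels do not say that the numbers are pairs. The fit with replicate number as a block is therefore an alternative, given where it changed a call.

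The fit was tested on simulated data with 200 changed genes and noise drawn independently for each gene and array. That noise held no slide difference shared between genes, unlike the NaHS arrays, so the shares called on real arrays may differ. For NaHS against vehicle at 24 h, 54.0% of 50 genes changed by 1 on the log2 scale and 12.0% of 50 changed by 0.5 were called. For 85% against 21% O2 these were 48.0% and 8.00%. The real oxygen comparison called 5453 genes, many more than the 200 changed in the simulation. The adjustment over all genes is stricter where fewer genes change, so these 2 shares may not hold for the real arrays. Alternatives covered scaling, background, filters, probes of a gene, blocks for slide and replicate number, single slides, the groups compared alone and leaving out each array.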

Additional observations from a re-analysis of the deposited data

Results flagged for a closer look

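Of 60 sets of 4 arrays (10 members in 6 groups), 4 held an array far from its other 3, by Dixon's test at the 95% level. Chance flags about 1 set in 20. Fos replicate 3 in 21% O2 stood at -0.31, above the other 3 at -0.91 to -0.88. Fosb replicate 2 with NaHS at 24 h stood at 0.26, below the other 3 at 0.90 to 0.97. Egr1 replicate 4 in vehicle at 24 h stood at 2.93, below the other 3 at 3.18 to 3.21. Jund replicate 2 in vehicle at 24 h stood at 4.61, below the other 3 at 4.96 to 5.03. Without 21% O2 replicate 3, the Fos difference between 85% and 21% O2 was -0.17, against -0.32 with all arrays, and it was not called in either case.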

How the results depend on the processing

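Over the scalings, filters, probe rules and blocks, the count of members called stayed at 0 for NaHS against vehicle (6 h and 24 h), for the difference between these effects and for 24 h against 6 h with NaHS, also without any 1 array. For 24 h against 6 h in vehicle the count was 0, and it was 1 (Fos) with genes above background on all arrays, with the replicate block and with slide as a block. With slide as a block and 1 array left out, an alternative added after seeing the data, it was 0 to 1 (1 in 2 of 8 fits). For 85% against 21% O2 the count was 2, and it was 1 to 2 without 1 array (1 where Jun was lost). It was 3 with median centring and with normexp, where Egr1 was added. The replicate block also gave 2, with Jun lost and Egr1 gained, and it changed no other member's call. No called member changed sign.

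Counts over all genes moved more. For 24 h against 6 h in vehicle they were 201, 1 with median centring, 505 with normexp, 50 with no filter, 592 above background on all arrays, 369 with every probe, 120 with the mean of probes, 885 with the replicate block, 711 with the slide block, 0 with only these groups, 0 and 1 within slides 1 and 2, 6 to 308 without 1 array, and 37 to 833 with the slide block too. With NaHS they were 9, 2 with quantile values or the deposited table, 0 with median centring, no filter, single slides or only these groups, 34 with normexp, 59 above background on all arrays, 35 and 33 with the replicate and slide blocks, 0 to 3 without 1 array and 1 to 25 with the slide block too. For NaHS at 6 h the count was 0 to 1 with the slide block and 1 array left out. For oxygen it was 2064 to 6764 without 1 array, and the calls split into 3536 higher and 1917 lower, 1957 and 3339 with median centring, and 2716 and 2569 with quantile normalization. With normexp they were 3307 and 2661, and 2733 and 2583 with the authors' values.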
